A study of Mus musculus with 4 samples.

Results

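Oxidative phosphorylation (OXPHOS) genes of both genomes were followed in single cells of tumor grafts and adipose tissue. The set was chosen by symbol. It held every gene starting mt-, which are the 13 proteins encoded on the mitochondrial DNA, and the nuclear genes starting Nduf, Uqcr, Cox4i, Cox5, Cox6, Cox7, Cox8 or Atp5, with Sdha, Sdhb, Sdhc, Sdhd and Cyc1. These were 94 nuclear genes, so that 107 of the 31053 genes in the tables were members. The study made 4 libraries by droplet capture, 1 each from a tumor control, a tumor D-CAN, a SAT control and a SAT D-CAN group. Tumors were MycCaP cells, a prostate cancer line from HiMyc mice, grafted under the skin of FVB mice fed chow (the strain is labelled VFB), and SAT was the stromal vascular fraction of subcutaneous adipose tissue. The treated mice received D-CAN, a peptide directed at adipose stromal cells (ASC) to deplete them, and controls received PBS. Dead cells and red cells were removed before capture in all 4 groups, and ages were not given in the sources used here. Whether a library pooled several mice was not stated either.

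The respiratory chain passes electrons from NADH and succinate to oxygen through complexes I to IV and stores the energy as a proton gradient that complex V, the ATP synthase, uses to make ATP. Complexes I, III, IV and V are built from subunits of both genomes, while complex II, which is also an enzyme of the tricarboxylic acid cycle, is made from nuclear genes alone. Mitochondrial messengers stay inside the organelle, and cytosolic RNA can leak from a damaged cell, so a high share of mt- transcripts is widely used as a sign of a broken cell as well as of many mitochondria.

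With 1 library per group there was no replicate and no test, and differences between libraries are given as values. The intervals given cover counting error alone, not the spread between mice. Levels are unique molecular identifiers (UMIs), which count captured RNA molecules. Each messenger is read at its 3′ end, so levels were not divided by transcript length. Members with short transcripts had lower medians of D-CAN over control than longer ones in SAT, as given below. The cause was not tested, and levels of different genes are set side by side with that limit. After cells with under 200 genes were left out, 2761 tumor control, 1487 tumor D-CAN, 2841 SAT control and 1897 SAT D-CAN cells remained, with 6667064 to 17996284 UMIs deposited per library and medians of 1707 to 5232 UMIs per cell. Each pair of libraries shared 0 to 2 cell barcodes. Cells were put into classes by counting the distinct marker genes of each type they carried, which gave a class to 70.7% to 93.3% of cells. The cancer gate rested on 5 of its 10 markers. Cldn3 was found in 96.6% and 97.9% of its cells (control and D-CAN), Psca in 76.6% and 79.4% and Krt8 in 75.7% and 71.6%, while Epcam, Krt18, Cldn7 and Cdh1 were in 0% to 0.349%. The other classes had at least 11 of 12 (myeloid) or all 10 of their markers in over 10% of their cells. Summed cancer markers in the other tumor classes are given as a percent of their level in cancer cells, control and D-CAN. They stood at 6.99% and 1.08% in mural cells, 7.11% and 1.51% in fibroblasts, 3.65% and 1.59% in endothelial cells and 8.71% and 7.34% in myeloid cells. They were thus lower under D-CAN in each of these classes, and their part in the tumor values was not tested. Cells with mixed markers were left out, and no doublet caller was run.

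All 13 mt- genes were detected, with 4451587 UMIs in all against 1291562 for the nuclear members. Mitochondrial transcripts made 11.3% and 9.79% of all UMIs in tumor control and D-CAN, and 6.03% and 6.74% in SAT control and D-CAN. Nuclear members made 3.61% and 3.59% of the UMIs outside mt- genes in tumors and 1.66% and 1.56% in SAT. This denominator leaves the mt- genes out, so that a high mt- share cannot lower the nuclear share by arithmetic. Tumor libraries were therefore richer in both sets, and the number of mt- UMIs per nuclear member UMI was 3.52 and 3.02 in tumors and 3.87 and 4.64 in SAT.

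Cancer cells had the highest mt- share of the 5 tumor classes. It was 10.3% in 1068 control cells and 9.17% in 573 D-CAN cells. Myeloid cells followed with 6.56% and 6.61%, then fibroblasts with 6.02% and 4.16% and endothelial cells with 5.23% and 4.5%. Mural cells, the pericytes and smooth muscle cells of vessels, were lowest with 4.22% and 3.45%. The order of the classes was the same in both tumor libraries except for fibroblasts and endothelial cells, which changed places. Within cancer cells the quartiles ran from 6.32% to 16.3% in the control and from 5.75% to 11.7% under D-CAN, so the spread between cells was wider than the gap to the myeloid class. Over 20% mt- UMIs were found in 21.5% and 14.0% of cancer cells.

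In SAT the order differed, and mural cells were highest by summed UMIs. They had 8.73% mt- UMIs in 65 control cells and 9.73% in 40 D-CAN cells. By the median over cells they were first under D-CAN with 9.78%, but in the control they had 5.13% and B cells 6.08%. B cells had 6.31% and 6.88%, T or NK cells 5.92% and 7.0%, myeloid cells 5.89% and 6.74% and endothelial cells 5.63% and 6.28%. Fibroblasts were lowest of these 6 classes with 4.71% and 4.55%, and the 20 and 19 neutrophils had 2.38% and 2.35%. Mural markers differed between the tissues in some genes only. Rgs5, a pericyte marker, was carried by 91.7% and 84.0% of tumor mural cells but 55.4% and 55.0% of those of SAT. Kcnj8, Higd1b and Abcc9 were likewise carried by a smaller share in both SAT libraries. Myh11, the smooth muscle myosin, went the other way with 31.2% and 24.0% in tumors and 64.6% and 85.0% in SAT. The shares of Acta2, Tagln, Cspg4, Notch3 and Des overlapped between the tissues. In CPM, the UMIs of a gene scaled to a common total outside mt- genes, Rgs5 was not lower in SAT. It had 2344.5 and 2747.5 CPM there against 2281 and 1806 CPM in tumors. Whether the mural cells were different mixtures was not tested, nor was the part of this in the mural values.

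**Figure D1:**
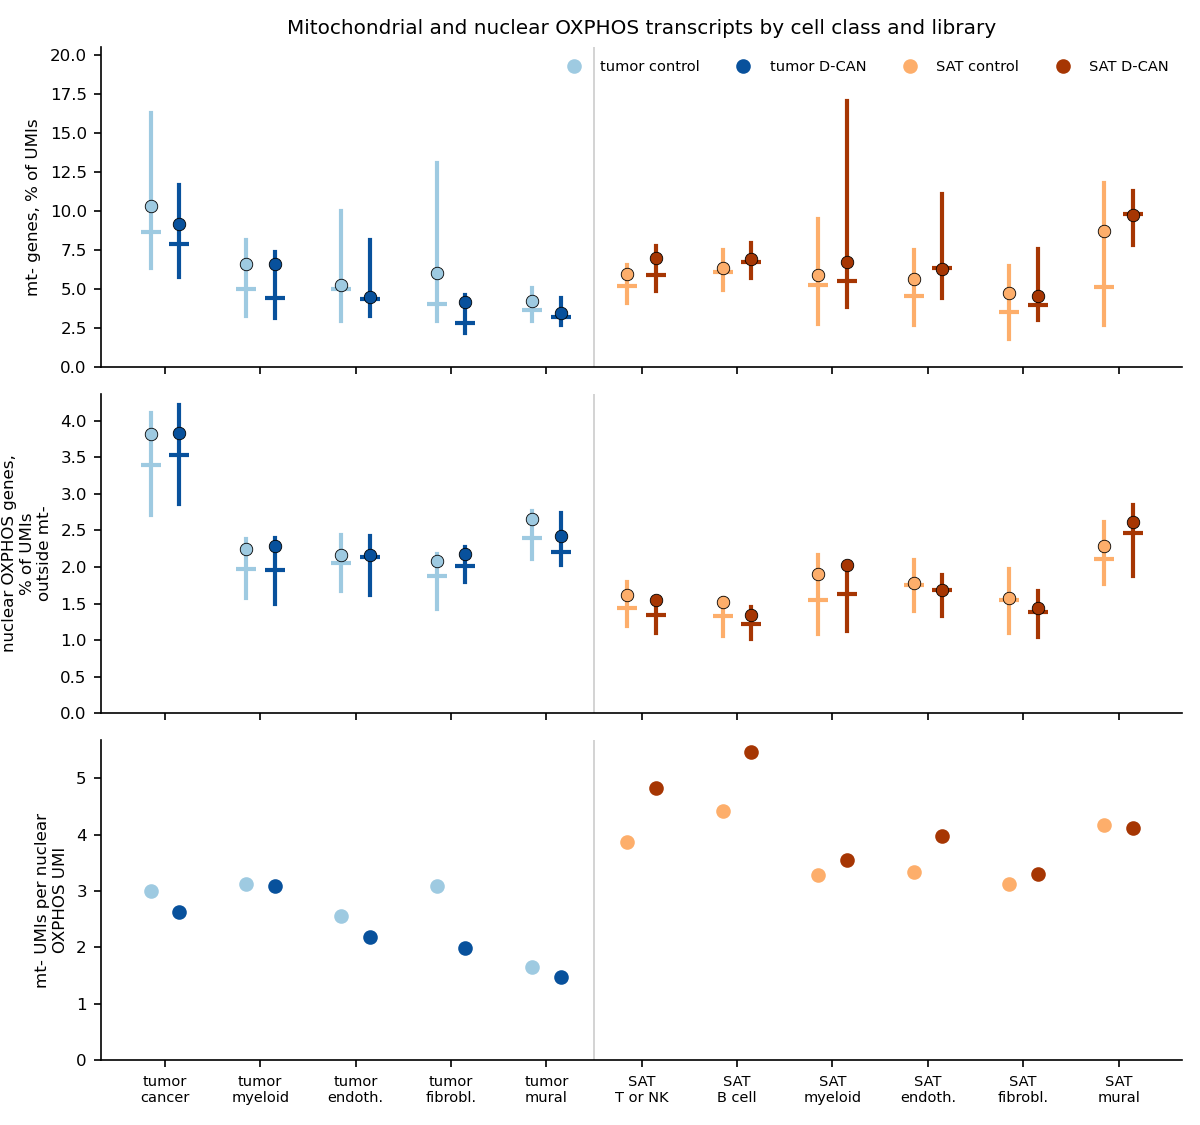
Share of mt- UMIs among all UMIs (top), share of nuclear OXPHOS UMIs among UMIs outside mt- genes (middle) and mt- UMIs per nuclear OXPHOS UMI (bottom) for 5 tumor and 6 SAT classes, 1 library per color. Circles are summed UMIs of the class, and in the upper panels dashes are medians and lines quartiles over its cells; cancer cells stand above the other tumor classes in both shares, and SAT B cells have the highest ratios.

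The nuclear members were also highest in cancer cells. They took 3.82% (95% interval 3.81% to 3.84%) and 3.84% (3.83% to 3.85%) of UMIs outside mt- genes. Mural cells were next of these classes with 2.66% (2.58% to 2.73%) and 2.42% (2.34% to 2.50%). Outside these classes, the 14 and 24 T or NK cells of the tumor had 3.06% and 2.51%, and its 7 and 6 neutrophils 1.28% and 6.25%. By the median over cells these neutrophils had 1.39% and 1.23%, and under D-CAN their summed cancer markers stood at 20.3% of the cancer level. Myeloid cells had 2.25% and 2.29%, endothelial cells 2.16% in both libraries and fibroblasts 2.08% and 2.18%. In SAT the mural cells came first with 2.29% (2.21% to 2.38%) and 2.62% (2.54% to 2.69%), followed by myeloid cells with 1.91% and 2.03% and endothelial cells with 1.79% and 1.69%. T or NK cells had 1.62% and 1.56%, fibroblasts 1.58% and 1.44%, and B cells 1.52% and 1.35%. Neutrophils had 0.903% and 1.27% from few cells. Lymphocytes and fibroblasts of SAT thus had low nuclear shares. By summed UMIs the mt- shares of the lymphocytes were below those of mural cells alone among the SAT classes compared. Cytosolic ribosomal protein messengers took 40.9% and 40.8% of UMIs outside mt- genes in T or NK cells and 34.9% and 33.5% in B cells. In myeloid, endothelial, fibroblast and mural cells of SAT they took 12.1% to 20.6%. Their part in the low nuclear share of lymphocytes was not tested.

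The ratio of the sets put the classes in another order. Tumor mural cells held 1.66 and 1.48 mt- UMIs per nuclear member UMI, the lowest of the classes that were compared. Cancer cells had 3.0 and 2.63, tumor myeloid cells 3.12 and 3.09, tumor fibroblasts 3.08 and 1.99 and tumor endothelial cells 2.55 and 2.18. In SAT the B cells were highest with 4.42 and 5.47 and T or NK cells next under D-CAN with 4.84, against 3.88 in the control, where mural cells had 4.17. SAT mural cells under D-CAN had 4.12, endothelial cells 3.34 and 3.98, myeloid cells 3.28 and 3.56, and fibroblasts 3.13 and 3.30. Across single cells thinned to 1000 UMIs, the rank correlation between the mt- and nuclear shares ran from -0.47 to 0.20 over 16 class and library pairs with a median of -0.08. In cells with up to 20% mt- UMIs it ran from -0.42 to 0.24, and cancer cells turned from -0.22 to 0.15 in the control and from -0.17 to 0.09 under D-CAN. Cells under 1000 UMIs were left out, 200 of 469 in SAT control endothelial cells. The correlation is a description of cells that share a library. Thinned cells held means of 11.9 to 35.1 nuclear member UMIs. Counting error at such counts draws a correlation toward 0, so these values cannot show that the sets were unrelated.

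Tumor cells with too few markers for any class had the highest ratios. These 605 control and 269 D-CAN cells held 25.8% and 25.4% mt- UMIs and 8.92 and 8.85 mt- UMIs per nuclear member UMI. Their nuclear share by summed UMIs was 3.90% and 3.85%, close to that of cancer cells. By the median over cells it was lower, with 2.35% and 2.05% against 3.39% and 3.53% in cancer cells. Their summed cancer markers stood at 24.1% and 23.5% of the cancer level. Over 20% mt- UMIs were found in 65.5% and 62.1% of them. They were kept out of all class values.

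Within the mt- set, a few messengers made most of the molecules. The ATP synthase subunit mt-Atp6 took 20.05% to 27.0% of mt- UMIs over the 22 class and library pairs, the complex IV subunit mt-Co3 17.7% to 25.2%, mt-Co2 13.6% to 17.8% and the catalytic subunit mt-Co1 9.88% to 16.9%. Together these 4 made 69.9% to 76.8%. The complex III subunit mt-Cytb took 5.99% to 9.66%, and the 7 complex I genes together 15.1% to 20.8%, led by mt-Nd4 with 5.34% to 7.30%. mt-Nd2 had 4.24% to 6.51% and mt-Nd1 3.09% to 5.42%. The remaining genes were scarce, with mt-Nd3 at 0.729% to 1.78%, mt-Nd5 at 0.692% to 1.36%, mt-Nd4l at 0.294% to 0.820% and mt-Atp8 at 0.229% to 0.599%. mt-Nd6, the only one of the 13 on the other strand, had 0.0124% to 0.114%. All 13 lie between bases 2751 and 15288 of the mitochondrial chromosome in GRCm38.

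Some of these genes share bases, which bears on how their UMIs are told apart. mt-Atp8 (chrM:7766-7969) and mt-Atp6 (chrM:7927-8607) are read from 1 messenger and overlap by 43 bases, and mt-Nd4l (chrM:9877-10173) and mt-Nd4 (chrM:10167-11544) by 7. The shared stretch of the first pair, from the GENCODE vM21 transcripts of GRCm38, is shown because a read inside it belongs to both genes, and the capitals mark the start codon of mt-Atp6.
mt-Atp8 and mt-Atp6, chrM:7927-7969, plus strand: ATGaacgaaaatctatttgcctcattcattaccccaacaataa
The UMIs of mt-Atp8 and mt-Nd4l were 20871 and 20619 over all libraries, against 1137860 and 300294 for mt-Atp6 and mt-Nd4. The values of the shorter gene of each pair are uncertain. The shared bases were 43 of 204 in mt-Atp8 and 7 of 297 in mt-Nd4l, and their part in these values was not tested.

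The make-up of the mt- set varied little for its main genes, with a 1.31-fold range over all classes and libraries for mt-Co2 and a 1.72-fold range for mt-Co1. Over the 4 classes present in both, mt-Nd1 and mt-Nd3 took a higher share of mt- UMIs in both SAT libraries than in both tumor libraries in 4 of 4 classes. In endothelial cells, for example, mt-Nd1 had 4.69% and 4.65% in SAT against 4.01% and 4.23% in tumors, and mt-Nd3 1.78% and 1.43% against 0.832% and 0.729%. mt-Co1 and mt-Atp6 were higher in both tumor libraries in 3 of 4 classes. In mural cells mt-Co1 had 16.9% and 14.4% in tumors against 11.5% and 11.2% in SAT.

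**Figure D2:**
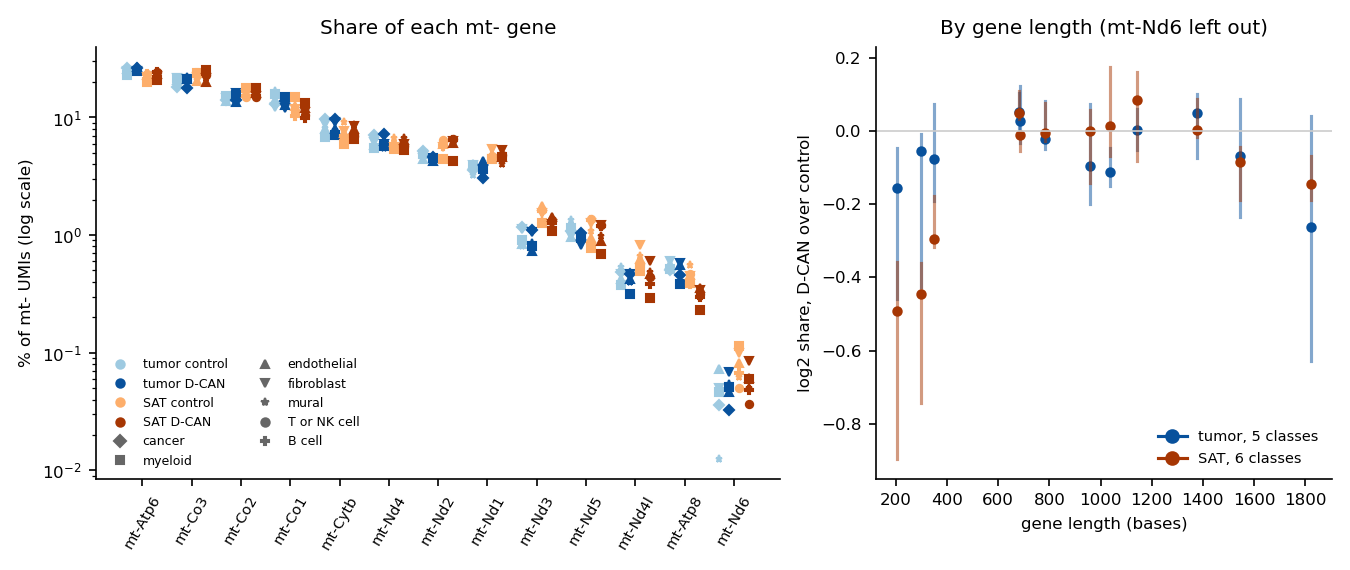
Left, share of each mt- gene among the mt- UMIs of a class (log scale), with 1 color per library and 1 symbol per class. Right, log2 ratio of that share, D-CAN over control, against gene length, with the median (circle) and range (line) over classes. The 3 shortest genes lie below 0 in all 6 SAT classes, as do the longer mt-Co2, mt-Co1 and mt-Nd5 by less.

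Complexes I, IV and V held most of the nuclear members. Complex I held 36 of the 94 genes, complex II 4, complex III 9, complex IV 20 with Ndufa4l2 placed there beside its paralog Ndufa4, complex V 17, and 8 were assembly factors of complex I (Ndufaf). No UMI was found for 3 of them, which were Cox7b2 and Cox8c, known for testis, and a second gene identifier named Atp5o, and 88 reached 100 UMIs over all libraries. Of the nuclear UMIs of a class, complex I took 25.7% to 34.9%, complex IV 25.8% to 30.9%, complex V 25.9% to 32.4%, complex III 9.24% to 12.7%, complex II 1.18% to 2.31% and the assembly factors 0.762% to 1.34%. Complex IV by contrast took 45.2% to 56.7% of mt- UMIs.

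The most abundant nuclear members were Cox4i1, a core structural subunit of complex IV, with 67022 UMIs, the catalytic ATP synthase subunit Atp5b with 43235, the complex IV subunits Cox8a with 42417 and Ndufa4 with 41666, and Cox7c with 39239. In cancer cells Cox4i1 stood at 2042 and 2031 CPM in control and D-CAN (the UMIs of a gene scaled to a common total of UMIs outside mt- genes), against 813 to 1112 in the other tumor classes. Atp5b had 1328 and 1344 CPM against 587 to 954, and Cox7c 1179 and 1229 against 569 to 740. Cancer cells lay above every other tumor class in both libraries for each of these genes. The 4 subunits of complex II were scarcer. Sdhb, its iron-sulfur subunit, had 165 and 169 CPM in cancer cells and 77.7 to 130 CPM in the other tumor classes. Sdha, the flavoprotein, had 118 and 113 CPM in cancer cells, where tumor D-CAN endothelial and mural cells reached 122 and 123 CPM, so cancer cells were not above all classes. Sdhc and Sdhd, the membrane anchors, had 65.1 to 65.6 and 101 to 114 CPM in cancer cells. Cyc1, cytochrome c1 of complex III, had 352 and 345 CPM there against 121 to 186 CPM in the other tumor classes.

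Of 88 nuclear members tested, 61 were higher in cancer cells than in each of the 4 other tumor classes in both libraries, where 19.1% of the 12619 genes tested were. The members that missed this included the assembly factors Ndufaf1, Ndufaf2, Ndufaf3, Ndufaf5 and Ndufaf6, the subunits Atp5e and Uqcrb, and the restricted paralogs Cox4i2, Cox7a1 and Ndufa4l2. The UMIs of both libraries of a class were then summed, over the 11 classes of both tissues. Among members with 100 UMIs or more, 57 of 88 were highest in cancer cells, against 16.4% of the 11881 genes with as many UMIs. SAT mural cells were the highest class for 14 members, a share near the 18.2% of all these genes. The median member ranged 1.68 on the log2 scale between its highest and lowest class where the median gene ranged 2.95, and 26 members ranged by 2 or more, against 71.6% of genes. Scarce genes range more by counting error alone. Among the 948 genes with at least 5873 UMIs, the lower quartile of these members, the medians were 1.66 for 66 members and 1.98 for genes. Of these, 77.3% of members and 40.1% of genes were highest in cancer cells, and 10.6% and 6.96% in SAT mural cells. Among subunits with UMIs in each of the 11 summed classes, Cox7a1 ranged most, by 5.04 on the log2 scale. It rested on few UMIs, with 1 in SAT control B cells and 0 in SAT D-CAN B cells. The small complex I subunits Ndufb2 and Ndufc2 followed with 3.11 and 3.05. By class and library, Ndufb2 ran from 46.6 to 433 CPM and Ndufc2 from 83.1 to 770 CPM. Both were lowest in SAT B cells and highest in cancer cells.

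Mural cells stood out in another group of members. With cancer cells left aside, 13 of 91 members were higher in mural cells than in every other class of their library in all 4 libraries, against 2.78% of 14168 genes. In all 4 libraries 0 of the 91 were lower than in every other class, as were only 84 of the 14168 genes, so that 0 is near the share of all genes. Members had more UMIs than most genes, and genes of like UMIs were not compared here. Among the 13 higher members were the complex I subunits Ndufs5, Ndufa5, Ndufa7, Ndufa11 and Ndufa12 and the complex IV subunits Cox4i2, Cox7c and Cox8a. Ndufa4l2, a paralog of Ndufa4, the ATP synthase subunits Atp5b and Atp5d, and Sdha were also among them. Cox8a had 1151 and 1353 CPM in SAT mural cells against 444 to 586 CPM in the other SAT classes, and 1042 and 958 CPM in tumor mural cells against 695 to 813 CPM in the other non-cancer classes. Atp5b had 904 and 1214 CPM in SAT mural cells against 311 to 669 CPM elsewhere in SAT. Tumor mural values rest on 48 and 25 cells, and SAT ones on 65 and 40.

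Ndufa4 and Ndufa4l2 gave the sharpest contrast between classes. NDUFA4 is a subunit of complex IV, first assigned to complex I, and NDUFA4L2 is a related protein known as a target of hypoxia-inducible factor and as a mark of pericytes. Ndufa4 is at chr6:11900376-11907497 on the minus strand and Ndufa4l2 at chr10:127514967-127517154 on the plus strand of GRCm38. Their coding sequences, from GENCODE vM21, are shown because the reads have to be told apart between paralogs. Capitals mark aligned runs of 8 or more identical bases, which number 4, and 168 of 245 aligned bases (68.6%) were identical.
Ndufa4: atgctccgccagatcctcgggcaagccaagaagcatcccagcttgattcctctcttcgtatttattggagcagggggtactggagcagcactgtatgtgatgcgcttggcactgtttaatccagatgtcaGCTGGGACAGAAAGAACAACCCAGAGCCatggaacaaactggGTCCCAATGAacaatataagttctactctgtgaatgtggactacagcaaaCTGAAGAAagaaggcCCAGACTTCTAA
Ndufa4l2: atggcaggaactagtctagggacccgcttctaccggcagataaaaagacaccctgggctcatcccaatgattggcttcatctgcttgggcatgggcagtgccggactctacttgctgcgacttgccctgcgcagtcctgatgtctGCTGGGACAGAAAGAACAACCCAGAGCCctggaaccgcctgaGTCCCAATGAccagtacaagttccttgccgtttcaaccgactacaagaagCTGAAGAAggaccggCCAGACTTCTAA
The longest run shared by the whole transcripts was 28 bases.

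In mural cells Ndufa4l2 outnumbered Ndufa4. It made 58.9% (51.1% to 66.4%) and 74.6% (66.2% to 81.8%) of the UMIs of the pair in tumor control and D-CAN, and 72.5% (63.1% to 80.6%) and 80.2% (73.6% to 85.8%) in SAT control and D-CAN. In level it had 543 and 628 CPM in tumor and 673.5 and 857 CPM in SAT mural cells, where Ndufa4 had 378, 214, 256 and 211 CPM. Ndufa4l2 was carried by 34 of 48 and 18 of 25 tumor mural cells and by 25 of 65 and 30 of 40 SAT mural cells. The cells of the cancer gate were at the other end, with 6 Ndufa4l2 UMIs against 14426 of Ndufa4 in the control and 1 against 13613 under D-CAN, and Ndufa4 levels of 1385 and 1401 CPM. No UMI of Ndufa4l2 was found in B or myeloid cells of SAT, where 3 UMIs would have been 1.68 to 13.4 CPM, and T or NK cells had 3 UMIs in 1 cell. Ndufa4l2 was not among the markers of the gate, and its share of the pair in mural cells lay above that of every other class in all 4 libraries.

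Fibroblasts were next in both tumor libraries and in SAT D-CAN, while endothelial cells were next in SAT control. The fibroblasts of the tissues differed. Ndufa4l2 made 24.9% and 39.7% of the pair in tumor fibroblasts (146 and 267 CPM), and 3.98% and 16.4% in SAT fibroblasts (14.9 and 45.5 CPM). A single control cell held 23 of the 59 tumor control UMIs, and without it the level was 91.0 CPM and the share 17.0%, while without the top D-CAN cell (25 of 153 UMIs) they were 228 CPM and 35.9%. It came from 17 of 114 and 23 of 74 tumor fibroblasts, of which 15 and 23 also carried a mural marker. Summed over the 10 mural markers, tumor fibroblasts stood at 38.9% and 44.5% of the mural level, with 8 and 9 of 10 markers found and Higd1b at 0 in both, while SAT fibroblasts stood at 1.21% and 0.519%. Acta2, the actin of smooth muscle and of activated fibroblasts, made much of this with 1507 and 2326 CPM in tumor fibroblasts, where the pericyte marker Rgs5 had 4.95 and 12.2 CPM. Among tumor fibroblasts with no mural marker, 42 and 18 cells, Ndufa4l2 made 10% of the pair in the control (7 UMIs) and had 0 UMIs beside 73 of Ndufa4 under D-CAN. In SAT D-CAN 3 of the 7 fibroblasts with Ndufa4l2 carried a mural marker, and the share without such cells was 9.46%. Endothelial cells had 1.23% and 14.1% in tumors, the latter from 14 UMIs in 3 cells, and 6.14% and 3.31% in SAT. The 20 Ndufa4l2 UMIs of tumor D-CAN myeloid cells came from 2 of 374 cells, 17 of them from 1.

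**Figure D3:**
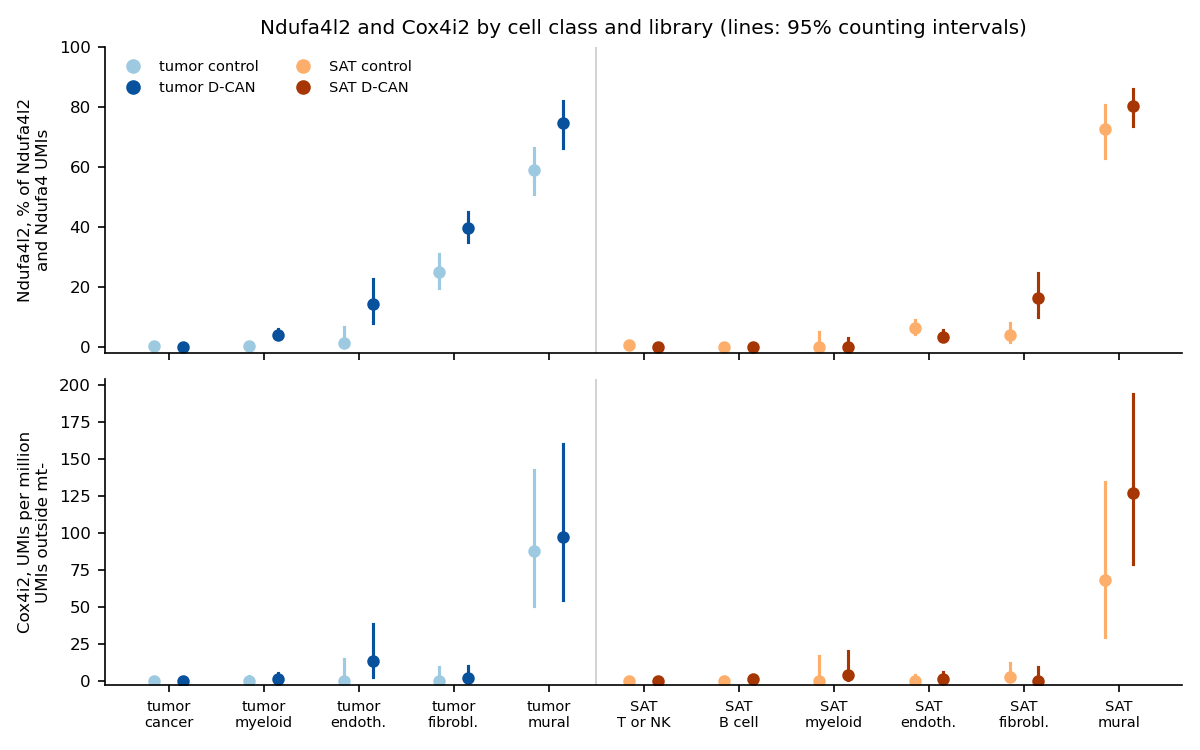
Share of Ndufa4l2 among the UMIs of Ndufa4l2 and Ndufa4 (top) and level of Cox4i2 in CPM (bottom) by class, 1 library per color, with lines for 95% counting intervals. Mural cells stand above every other class in both tissues, followed for Ndufa4l2 by tumor fibroblasts.

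Cox4i2 followed Ndufa4l2 in its place but not in its level. It is the isoform of subunit 4 known from lung and from oxygen sensing, at chr2:152754173-152765037, and Cox4i1 at chr8:120668222-120674207 is its common partner. In mural cells Cox4i2 had 87.7 and 97.1 CPM in tumors and 68.2 and 127 CPM in SAT, from 16, 15, 8 and 21 UMIs, or 6.11% to 11.4% of the pair. Every other class had 0 to 3 UMIs of Cox4i2 in a library, and cancer cells had 0 UMIs beside 21275 and 19729 of Cox4i1. Mural cells thus carried the restricted gene of both pairs.

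The isoforms of heart and skeletal muscle were scarce and came from few cells. Cox7a1 had 12.8 and 15.6 CPM in cancer cells, 1.90% and 2.32% of the sum with Cox7a2, and was found in 101 of 1068 and 90 of 573 of them. Tumor myeloid cells had 15.5 and 13.9 CPM. In SAT T, NK and B cells it had 0 to 2 UMIs. The SAT D-CAN B cells held 33 UMIs of Cox6a2 in 4 cells, while the 700 control B cells had 0. Within the B gate the level was thus at least 9.45-fold higher against a floor of 3 UMIs in the control. Over whole libraries Cox6a2 had 39 UMIs in SAT control and 54 in SAT D-CAN, so the fold is one of gated cells and not of the tissue. In the control 8 UMIs were in T or NK cells, 7 of them in 1 cell. All 4 cells carried Siglech, a marker of plasmacytoid dendritic cells that was chosen after the values were seen and that only 5 of the 650 B-gated cells had, while 0 of 4 carried the B cell genes Cd79a and Ms4a1, found in 591 and 548 of the 650, and 1 carried Cd79b, found in 565. Cox8b, the isoform of muscle and brown fat, had 10 UMIs in 10 SAT D-CAN endothelial cells and at most 4 in any other class, and Cox6b2 had at most 12 UMIs in a class.

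The common isoforms differed less. Cox7a2l, a factor in joining complexes III and IV, was highest in SAT T or NK cells with 695 and 753 CPM and in cancer cells with 688 and 708 CPM, and lower in tumor fibroblasts with 285 and 300 CPM. Cox7a2 had 659 and 658 CPM in cancer cells and 180 to 405 CPM in SAT. Cox6a1 had 664 and 630 CPM in cancer cells against 134 to 290 CPM in SAT, Cox6b1 648 and 649 against 212 to 451 CPM, and Cox7b 577 and 587 against 165 to 410 CPM. Of the 3 genes for subunit c of the ATP synthase rotor, which make the same mature protein, Atp5g1 had 842 and 821 CPM in cancer cells against 185 to 284 in SAT. Atp5g2 had 649 and 624 CPM against 247 to 601, and Atp5g3 296 and 303 CPM against 130 to 447. Atp5g2 was the most abundant of the 3 in every SAT class, and Atp5g1 in cancer cells.

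The 4 classes found in both tissues differed in how many nuclear members were higher in tumors. In fibroblasts 66 of 83 members were higher in both tumor libraries than in both SAT libraries, where 32.1% of genes were, and 2 were lower, Ndufs4 and Cox7a2l, against 25.5%. In endothelial cells 48 of 83 members were higher, against 26.5% of genes, and 4 were lower, against 30.6%. In myeloid cells 45 of 85 were higher, against 28.6%, and 12 were lower, against 24.2%. In mural cells 20 of 81 were higher, against 27.8%, a share near that of all genes, and 15 were lower, against 33.2%, among them Cox8a, Sdha and Ndufa4l2. The median member of fibroblasts was 0.37 higher on the log2 scale in tumor than in SAT in controls and 0.53 under D-CAN, where the median gene was 0.11 and 0.12 higher. Tissue, graft and capture were joined in this comparison and cannot be told apart, and the cancer RNA carried into tumor classes, given above, was not tested as a part of it.

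Between control and D-CAN the nuclear share moved little in cancer cells. It was 3.82% and 3.84%, and the median member differed by 0.02 on the log2 scale where the median gene differed by 0.01. The extremes were Ndufaf3 with -0.31 and Ndufaf5 with 0.36. Past a 2-fold difference in either direction were 0 of 86 members in cancer cells, where 1.81% of 10911 genes were. In tumor myeloid cells 1 of 84 passed, against 3.73% of genes, which was Ndufa4l2 with its 20 UMIs against 1, a 20.4-fold ratio with a counting interval of 3.27 to 846. In tumor endothelial cells 0 of 76 passed against 7.69%. In tumor fibroblasts Ndufaf3 passed with -1.01, 1 of 81 against 5.79%, and in tumor mural cells Sdhd with 1.03 (87.7 against 181 CPM), 1 of 78 against 7.93%. At this minimum of 20 UMIs the member shares past 2-fold were below those of all genes in every tumor class. Members had more UMIs than most genes, with 66 of 88 at 5873 UMIs or more over all libraries, against 948 of 11881 genes. Counting error alone takes scarcer genes past 2-fold more often, and genes of like UMIs were not compared.

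The member shares were below those of all genes in each SAT class too, under the same limit. Of T or NK members 1 of 85 passed, against 3.37% of genes, the assembly factor Ndufaf7 with 1.23. In B cells 2 of 84 passed, against 4.34%. These were Cox6a2, from the 4 cells with Siglech described above, and Atp5k, the subunit e of ATP synthase, with -1.01 (191 against 94.9 CPM). In myeloid cells 0 of 76 passed against 15.7%, and in endothelial cells 0 of 83 against 4.05%. In fibroblasts Ndufa4l2 passed with 1.55 and Ndufaf4 with -1.10, 2 of 80 against 10.5% of genes. In mural cells Sdhc (93.8 against 254 CPM, 1.39) and Cyc1 (93.8 against 193 CPM, 1.0) were higher and Ndufaf8 with -1.20 lower, 3 of 79 against 11.8%. Of these 11 differences in 892, Atp5k in B cells alone had 100 UMIs or more over both libraries, and with every cell thinned to 1000 UMIs 27 of 646 passed, where 5.66% of the differences over all genes did, the member share lying below that of all genes in 10 of 11 classes and above it in tumor endothelial cells (6 of 52 against 7.27%). The median member differed by -0.06 in T or NK cells (median gene 0.01), -0.17 in B cells (-0.06), 0.00 in myeloid (0.06), -0.09 in endothelial cells (0.03), -0.10 in fibroblasts (-0.02) and 0.26 in mural cells (0.11), where it was -0.04 with equal weight per cell.

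Among members with 100 UMIs or more the differences were small in most classes. T or NK cells had Uqcrfs1, the Rieske protein of complex III, 0.41 and Ndufs1 0.40 higher. In SAT myeloid cells Cox7b was 0.84, Atp5c1 0.66 and Atp5f1 0.65 higher, and in SAT mural cells Atp5a1 0.79 and Atp5d 0.55 higher. In tumor mural cells Ndufa4 was 0.81 and Cox7a2 0.72 lower, with 33 and 50 UMIs under D-CAN. Both genes were high in cancer cells, and cancer markers in tumor mural cells went from 6.99% to 1.08% of the cancer level. Their part in these values was not tested. In B cells Ndufs1 was 0.64 lower, on 63 and 47 UMIs, and Ndufa9 0.40 higher, and in SAT fibroblasts Ndufa4 was 0.63 and Cox7c 0.62 lower. Tumor fibroblasts had Ndufa4l2 0.86, Ndufa8 0.67 and Ndufb10 0.58 higher and Ndufc2 0.47 lower. Tumor endothelial cells had Atp5a1 0.56 higher and Cox6b1 0.41 lower. The values of this group were within 2-fold except Atp5k in B cells.

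**Figure D4:**
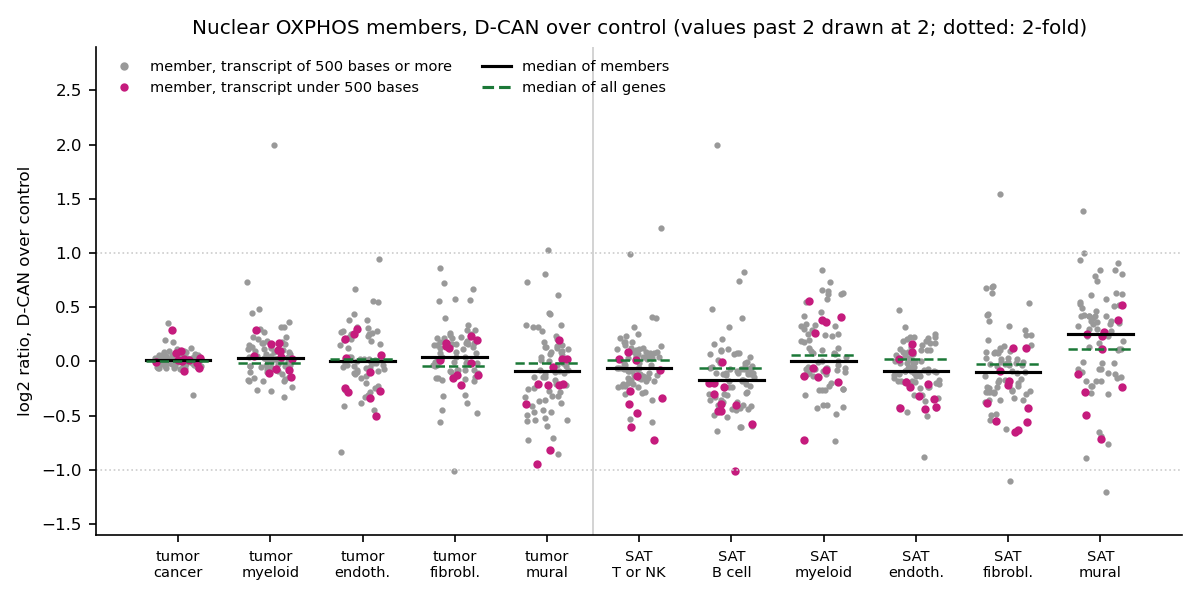
Log2 ratio of D-CAN over control for each nuclear member in 11 classes, with the median of the members (solid line) and of all genes (dashed line). Members with a transcript under 500 bases, in pink, have a median below that of the longer members in all 6 SAT classes, and nearly all members lie within 2-fold.

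The mt- share moved in opposite directions in the tissues. It was lower under D-CAN in 4 of 5 tumor classes (0.691 to 1.01 times the control) and higher in 5 of 6 SAT classes (0.967 to 1.18 times). The number of mt- UMIs per nuclear member UMI was lower in 5 of 5 tumor classes and higher in 5 of 6 SAT classes, with SAT mural cells the exception. Among classes where this ratio differed by more than its counting error, it turned in 3 in cells with at most 10% mt- UMIs. The log2 values there were 0.05 in tumor endothelial, 0.10 in tumor mural and -0.18 in SAT myeloid cells. With all listed markers in the gate the ratio was 0.02 in tumor mural cells. The share of cells over 20% mt- UMIs went from 21.5% to 14.0% in cancer cells and from 7.72% to 14.9% in T or NK cells. It did not follow the mt- share in every class, going from 5.21% to 8.06% in tumor endothelial cells, where the mt- share was lower, and from 12.3% to 7.5% in SAT mural cells, where it was higher. In cells with at most 20% mt- UMIs the log2 difference went from -0.16 to -0.08 in cancer cells and from 0.24 to 0.13 in T or NK cells, and SAT myeloid cells turned to -0.04. Depth differed as well. The median UMIs per cell were higher under D-CAN in all 11 classes, by 1.55 to 2.09 times in tumors and 1.32 to 5.94 times in SAT. Cancer markers in the other tumor classes were lower under D-CAN, as given above. The part of depth or of these markers in the mt- differences was not tested.

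Short transcripts were lower than longer ones by the median in SAT D-CAN. Members with a transcript under 500 bases were lower under D-CAN than longer members by the median in T or NK cells (-0.27 against -0.03 on the log2 scale, 11 and 74 members), B cells (-0.39 against -0.11) and fibroblasts (-0.39 against -0.04). The gap was smaller in SAT myeloid cells (-0.06 against 0.01), and some tumor classes had one as well, with -0.21 against -0.08 in mural and -0.09 against 0.00 in endothelial cells. Atp5k, with 371 bases, was -0.61 in T or NK cells, -1.01 in B cells and -0.43 in both endothelial cells and fibroblasts. Ndufb2, a complex I subunit with 455 bases, was -0.73 in T or NK cells and -0.44 in endothelial cells, and Uqcr11, a small complex III subunit with 445 bases, was -0.47 in T or NK cells. Uqcr10, with 434 bases, was -0.65 in fibroblasts. Longer members were among the lowest too, with Ndufs1 (2590 bases) at -0.64 and Ndufv3 (1582 bases) at -0.60 in B cells, Uqcrc1 (1653 bases) at -0.43 in endothelial cells and Cox7c (540 bases) at -0.62 in fibroblasts. The pattern was not particular to the members, since all genes with transcripts under 500 bases had medians of -0.15, -0.32 and -0.32 in these classes. In cancer cells the medians of short and longer members were 0.01 and 0.02.

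Short mitochondrial genes were lower as well, with length taken from the gene. mt-Atp8 shares its messenger with mt-Atp6 and mt-Nd4l overlaps mt-Nd4, so for these the gene length need not be that of the messenger. mt-Atp8 with 204 bases, mt-Nd4l with 297 and mt-Nd3 with 348 took a lower share of mt- UMIs under D-CAN in 6 of 6 SAT classes, with medians of -0.49, -0.45 and -0.30 on the log2 scale. mt-Nd6, with 519 bases, was lower in 6 of 6 too. So were the longer mt-Co2 (684 bases), mt-Co1 (1545 bases) and mt-Nd5 (1824 bases), by smaller medians of -0.01, -0.08 and -0.15, so that 6 of 6 was not particular to short genes. The other genes had medians of -0.01 to 0.09. In the 5 tumor classes the medians of the 3 shortest were -0.16, -0.05 and -0.08, while the longest, mt-Nd5, had -0.26. The SAT D-CAN table was written by Cell Ranger 3.0.2 and the other 3 tables by 3.1.0 per the file headers, and the part of that difference, or of fragment size, was not tested.

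Nuclear members did not fall steadily as the mt- share of a cell rose. In cancer cells of the control the nuclear share was 3.39% in cells with up to 5% mt- UMIs, 3.78% at 5 to 10%, 4.49% at 10 to 20%, 2.86% at 20 to 50% and 2.16% above 50%. Under D-CAN it was 3.5%, 3.83%, 4.29% and 3.27% up to 50%, and 16 cells above were too few to give. Both libraries peaked at 10 to 20%. Tumor cells without a class peaked there too, with 5.43% and 5.31%. T or NK cells had a falling share from the start, with 1.66%, 1.61%, 1.39% and 1.13% in the control and 1.62%, 1.55%, 1.27% and 1.05% under D-CAN, and B cells under D-CAN reached 0.739% at 20 to 50%. With 500 genes or more per cell, the log2 difference of control T or NK cells between 20 to 50% and 5 to 10% went from -0.51 to -0.06, and that of D-CAN cells from -0.57 to -0.26.

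RNA of other kinds moved across the same strata. Cytosolic ribosomal protein messengers fell from 31.4% to 19.8% of UMIs outside mt- genes between the lowest stratum and 20 to 50% in control cancer cells, and to 15.7% above 50%. In control T or NK cells they fell from 40.6% to 13.7%. Malat1 and Neat1, noncoding RNAs of the nucleus, rose from 3.17% to 11.6% in cancer cells and from 4.31% to 9.57% in T or NK cells. Depth also fell, from a median of 12990 UMIs at 5 to 10% to 3980 at 20 to 50% in control cancer cells. Their part in the nuclear member values was not tested.

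**Figure D5:**
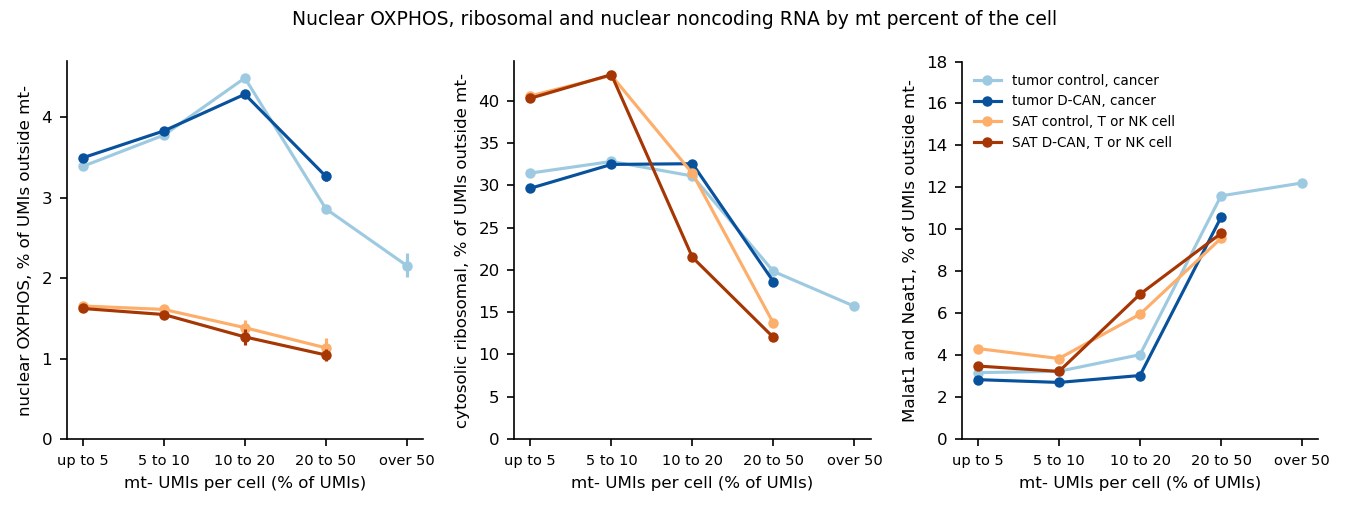
Share of nuclear OXPHOS (left), cytosolic ribosomal protein (middle) and Malat1 with Neat1 (right) UMIs among UMIs outside mt- genes, by the mt- percent of the cell, for cancer cells and T or NK cells, with 95% counting intervals in the left panel. Nuclear members of cancer cells rise to the 10 to 20% stratum and fall above it, and ribosomal messengers are lower and the nuclear RNAs higher above 20% than below 10% mt- UMIs.

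Gene by gene, cells over 20% mt- were set against cells with up to 10% of the same class. The median member was lower in the high cells by 0.46 and 0.26 on the log2 scale in cancer cells (control and D-CAN) and by 0.36 and 0.53 in T or NK cells, where the median gene was higher by 0.43, 0.47, 0.94 and 1.02. The high cells held 11.7, 21.5, 58.7 and 32.7 times fewer UMIs outside mt- genes, and the added 0.5 UMI raised the ratio of scarce genes there. A gene with 20 UMIs in the low cells and 0 in the high cells would have had log2 ratios of -1.81, -0.93, 0.52 and -0.33, so that in all but control cancer cells it could not count as 2-fold lower. In control cancer cells 5 of 86 members were 2-fold lower, against 3.76% of genes, and under D-CAN 1 of 86, against 5.8%. Of T or NK members 17 of 80 were 2-fold lower in the control, against 6.57%, and 27 of 82 under D-CAN, against 6.62%. Over genes for which 10 UMIs or more would be found in the high cells at an equal level, with no UMI added, these shares became 5 of 81 members against 3.17% of 5963 genes and 1 of 80 against 5.43% of 4107 in cancer cells. In T or NK cells they became 8 of 17 members against 36.8% of 315 genes and 18 of 42 against 20.8% of 790. The median gene then stood at 0.24, 0.11, -0.41 and 0.16 and the median member at -0.47, -0.27, -0.82 and -0.78. The member share in control T or NK cells thus lay nearer that of all genes than the first counts gave, on 17 members. Median ribosomal protein genes stood at -0.79, -0.83, -1.59 and -1.84 in this selection.

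Members differed among themselves in this. In control cancer cells Atp5e, the epsilon subunit of ATP synthase, fell from 582 to 212 CPM, Cox7b from 593 to 265 CPM and Ndufaf6 from 21.5 to 6.16 CPM, the last on 4 UMIs. Ndufs1, the largest subunit of complex I, stood at 68.1 against 123 CPM and Sdha at 110 against 152 CPM, both higher in the high cells. Under D-CAN Atp5e fell from 594 to 341 CPM, Ndufs8 from 135 to 56.8 and Ndufa7 from 278 to 151 CPM, while Sdha stood at 109 against 185 CPM, Cox7a1 at 12.1 against 31.2 CPM and Ndufaf7 at 36.6 against 59.6 CPM. Atp5e was thus low and Sdha high in the high cells of both tumor libraries. Atp5e also fell in T or NK cells under D-CAN, from 520 to 114 CPM (1340 and 9 UMIs). The other members at the extremes in T or NK cells had 0 to 10 UMIs in the high cells.

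Depth gave a plainer relation in cancer cells. From the shallowest to the deepest of 5 equal groups of control cancer cells the nuclear share rose from 2.75% to 4.09%, and under D-CAN from 3.07% to 4.05%. Over the same groups the mt- share fell from 27.4% to 9.0% and from 23.2% to 8.54%. The nuclear share of T or NK cells went from 1.41% to 1.79% in the control (0.35 on the log2 scale, and 0.11 with cells thinned to 1000 UMIs) and from 1.0% to 1.85% under D-CAN (0.88, and 0.44 thinned), the middle groups being flat at 1.46% to 1.66% and 1.37% to 1.41%. In control B cells it was 1.29% to 1.40% in the 4 shallower groups and 1.80% in the deepest.

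Other mitochondrial genes were read from lists with the same cells. Between D-CAN and control in cancer cells no gene passed 2-fold among 16 measured of 17 genes for mitochondrial biogenesis and mtDNA expression, 13 of the tricarboxylic acid cycle, 16 of 17 carriers and membrane proteins, 77 of 78 mitochondrial ribosomal proteins and 27 other assembly factors. Their medians were -0.01, 0.09, 0.06, 0.05 and 0.00 on the log2 scale. The median of all genes there was 0.01, and 1.81% of genes passed. Among T or NK genes 1 of 25 assembly factors was lower, where 2.06% of all genes were, and no gene of the other lists passed. In B cells 1 of 15 biogenesis genes and 2 of 76 mitochondrial ribosomal proteins were lower, where 2.77% of all genes were. The medians of these lists were -0.32 and -0.22, below the member median of -0.17 and the median of all genes of -0.06. Across mt- strata the lists had different medians, under the same limit of few UMIs in the high cells. In high cancer cells biogenesis genes were 0.65 and 0.56 higher by the median, where the median of all genes was 0.43 and 0.47 higher. Mitochondrial ribosomal proteins were 0.50 and 0.48 lower, while the tricarboxylic acid cycle had -0.45 and 0.07. Over the genes with 10 UMIs or more to be expected there, the medians were 0.84 and 0.27 for 10 and 4 biogenesis genes. They were -0.52 and -0.50 for 76 and 72 mitochondrial ribosomal proteins and -0.46 and 0.06 for 13 genes of the cycle. All genes of this selection had medians of 0.24 and 0.11. Between tumor and SAT fibroblasts the medians of carriers were 0.53 and 0.85 higher in tumors, of mitochondrial ribosomal proteins 0.47 and 0.41, and of tricarboxylic acid cycle genes 0.34 and 0.85. Biogenesis genes had 0.35 and -0.30.

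Promoters of the members were read for sequence that the choice by symbol had not used. NRF1 and the ETS factor GABP are known activators of nuclear genes for mitochondrial proteins. Windows from 250 bases before to 50 after the start of each gene were taken from RefSeq in GRCm38.p6, for 74 members, and searched on both strands for the NRF1 core, of 10 letters, and for the ETS core CCGGAAG. The first was in 18 of 74 member windows (24.3%) against 4.78% of all 27025 windows, and the second in 17 (23.0%) against 9.12%. Either was in 31 (41.9%) against 13.0%, and both in 4. A match is a description of letters and not of binding. Stretches of 5 members whose values were described above are shown with the NRF1 core in capitals, each read along its gene, because these members differed in other values.
Atp5k, chr5:108434428-108434461, minus strand: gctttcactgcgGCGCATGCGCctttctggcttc
Atp5g2, chr15:102671068-102671101, minus strand: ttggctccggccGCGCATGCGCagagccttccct
Sdha, chr13:74350317-74350350, minus strand: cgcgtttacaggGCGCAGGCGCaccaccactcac
Sdhd, chr9:50603907-50603940, minus strand: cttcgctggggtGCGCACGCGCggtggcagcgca
Cox6a1, chr5:115349099-115349132, minus strand: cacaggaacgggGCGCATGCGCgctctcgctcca
Cox6a1 was among the members higher in cancer cells than in all other tumor classes and Sdha and Sdhd were not.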

How the data were processed

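Gene expression in single cells was measured by droplet capture in 4 libraries, 1 per group. Per the file headers and the submitters' notes, the authors ran Cell Ranger (3.1.0, with 3.0.2 in the header of SAT D-CAN) with STAR 2.6 on mm10 with Ensembl 93 genes and deposited whole-number UMI counts per gene and cell, without normalization. The members, lists and comparisons were chosen with earlier results of these data known. Cells with 200 genes or more were kept (8986 of 9128). A cell was gated to the class of which it carried at least 2 distinct markers, leading the next class by 2 times or by 2 markers, and otherwise called mixed or no class (7237, 507 and 1242 cells). The gate left out 2 of the listed markers, a choice made after the data had been seen. Counts were summed per class and library. Log2 ratios used CPM outside mt- genes, with 0.5 UMI added, with a minimum of 20 UMIs per gene summed over the pair of libraries, and 2-fold counted as past. Intervals are 95% exact binomial (Clopper-Pearson) or Poisson intervals, and the floor for a count of 0 is 3 UMIs. Strata under 20 cells were not given.

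Genes named were all mt- genes, paralog groups, the subunits of complex II with Cyc1, the 5 nuclear members with the most UMIs, the 5 with the widest range over classes, and the 3 highest and 3 lowest ratios per comparison among members with 100 UMIs or more. Members outside this rule that passed 2-fold, or that belong to a counted class pattern, and the markers of the Cox6a2 cells were named after their values were seen. Positions and lengths are from GENCODE vM21 (GRCm38), a length being that of the shortest principal transcript. Python 3.11.15, numpy 2.4.6, scipy 1.17.1, pandas 2.3.3 and matplotlib 3.10.9 were used, and the ratios were tested on simulated data. Alternatives varied the cell filter, gate, denominator, thinning, weighting, minimum UMIs, added count and fold.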

Additional observations from a re-analysis of the deposited data

Results flagged for a closer look

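D-CAN and control differed in opposite directions in the tissues for several values, each from 1 library per group, and these differences between tissues were not tested. On the log2 scale, D-CAN over control, the mt- share of endothelial cells was -0.22 in tumors and 0.16 in SAT. The mt- share of mural cells was -0.29 in tumors and 0.16 in SAT, and their nuclear share -0.13 and 0.19. In fibroblasts the nuclear share was 0.07 in tumors and -0.13 in SAT, but with all listed markers in the gate the tumor value was -0.41, the direction of SAT. Over whole libraries the mt- share was -0.20 in tumors and 0.16 in SAT.

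Cells with under 200 genes stood outside all comparisons. The 38 of tumor D-CAN held 86.1% mt- UMIs, and the 69 of tumor control 79.6%. In SAT the 10 control cells had 67.1% and the 25 D-CAN cells 38.8%.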

How the results depend on the processing

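No paired analysis was possible because each group had 1 library. Of 414 values under alternatives, 264 kept their direction and size, 137 moved and 13 changed direction, all log2 values D-CAN over control unless stated, and the causes were not tested. The mt- share of cancer cells (-0.16) was -0.17 with 3 markers to gate a cell, -0.19 with all markers and no lead rule, -0.08 in cells with at most 20% mt- UMIs and -0.14 as a median over cells. Their mt- to nuclear ratio (-0.19) was -0.18, -0.20, -0.07 at most 10% mt-, -0.29 thinned to 1000 UMIs and -0.13 as a median. In T or NK cells the mt- share (0.24) was 0.22 with 500 genes or more, 0.21 with 3 markers, 0.13 at most 20% mt- and 0.18 as a median, and the ratio (0.32) was 0.28 with 3 markers, 0.22 at most 10% mt-, 0.48 thinned and 0.35 as a median. The nuclear share of control cancer over myeloid cells (0.77) was 0.75 with 3 markers, 0.75 at most 10% mt- and 0.71 as a share of all UMIs. The median member of cancer cells (0.02) was 0.04 per all UMIs, 0.05 with equal weight per cell, 0.00 with all markers and changed direction to -0.01 with 3 markers, and that of T or NK cells (-0.06) was -0.14 thinned and -0.19 with equal weight. Members past 2-fold (11) were 2 at 50 UMIs or more, 1 at 100, 27 thinned, 26 with equal weight and 68 at 1.5-fold. Cells at 20 to 50% over 5 to 10% mt- had a nuclear share of -0.40 in control cancer cells, which was -0.80 of all UMIs and -0.18 between outer quartiles of mt-, and in control T or NK cells -0.51, which was -0.99 of all UMIs, -0.06 with 500 genes and -0.18 between outer quartiles. Members 2-fold lower in control T or NK cells high in mt- (17) were 8 over genes with 10 UMIs or more expected there, a choice made after the data had been seen. The deepest over the shallowest group of control T or NK cells (0.35) was 0.11 thinned. Direction changed for the ratio at most 10% mt- in tumor endothelial (0.05), tumor mural (0.10) and SAT myeloid cells (-0.18), and with all markers in tumor mural cells (0.02, from 16 and 9 cells). It also changed for the mt- share of SAT myeloid cells at most 20% mt- (-0.04) and of SAT fibroblasts with 3 markers (0.04) and as a median (0.17). The nuclear share changed in tumor myeloid cells as a median (-0.01), in tumor fibroblasts with all markers (-0.41) and in D-CAN cancer cells between outer quartiles of mt- (0.22). The median member changed with equal weight in tumor myeloid (-0.04) and SAT mural cells (-0.04).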
